A study of Mus musculus with 13 samples.

Results

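The genes described here are macrophage markers, read in cultures of mouse fibroblasts on their way to induced pluripotent stem (iPS) cells. The set named 10 genes, and 9 of them had a transcript cluster that the platform annotation pairs with that symbol alone. They are C1qa, C1qb, C1qc, Adgre1 (written Emr1 in older annotation), Csf1r, Tyrobp, Aif1, Ctss and Cd68, out of 14860 genes with such a cluster. Each of the 9 had 1 cluster. Lyz2, the lysozyme gene of macrophages, shared both of its clusters with Lyz1 and was not used.

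All 13 arrays were of fibroblasts or fibroblast-derived cells kept in mouse embryonic stem cell medium, with 1 array per condition. The 6C and 1B lines are secondary mouse embryonic fibroblasts in which doxycycline (Dox, 1.5 µg per ml) switches on reprogramming factors through an inducible promoter, and in this kind of system such fibroblasts come from embryos made with a primary iPS clone. Untreated cells were the parental fibroblasts, 6C at day 0 and 1B at day 0. The 6C line was sampled on Dox at days 2, 5, 8, 11, 16 and 21 and as secondary iPS cells at day 30, and the primary 6C iPS cells had an array of their own. Line 1B was sampled after 5 days of Dox, and after 5 days of Dox followed by 5 days without it. Both iPS samples are described as independent of Dox, although their agent label names it. The labels name no separate cultures of a condition and say nothing of sorting or of feeder cells.

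Macrophages arise from blood-forming tissue of the embryo and settle in almost every organ. They depend on the receptor Csf1r, which binds the growth factors Csf1 and Il34, and they engulf debris, digest it in lysosomes and release the complement protein C1q. Most of the genes named here are used in mouse tissue to tell macrophages from other cells, and Cd68 is the one best known to be present in other cell types as well.

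The deposited values carry no sequence, so promoter sequence from RefSeq (GRCm38.p6) was set beside the members. The search covered 5 of the 9 members (C1qb, C1qc, Aif1, Cd68 and Ctss). No promoter was found for C1qa, Adgre1 and Tyrobp, and Csf1r was left out of the search. The 250 bases upstream of the annotated start were searched on both strands for 3 short motifs. These were AGGAAGT, the core bound by the Ets factor PU.1 that Spi1 encodes, the longer PU.1 form GAGGAAGTG, which contains that core, and GAAA followed by any 2 bases and GAAA again, the core of the interferon response element. The windows of C1qb at chr4:136886201-136886450 (minus strand), of C1qc at chr4:136892915-136893164 (minus strand) and of Ctss at chr3:95526536-95526785 (plus strand) are shown as windows of C1q and cathepsin genes that each hold a match. Capitals mark the matches, which are reverse complements of the PU.1 motifs in C1qb and C1qc and an interferon response core in Ctss.
C1qb: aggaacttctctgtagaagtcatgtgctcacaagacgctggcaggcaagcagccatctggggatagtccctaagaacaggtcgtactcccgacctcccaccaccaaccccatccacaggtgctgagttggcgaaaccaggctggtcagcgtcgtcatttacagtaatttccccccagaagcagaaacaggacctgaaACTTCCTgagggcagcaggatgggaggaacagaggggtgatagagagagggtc
C1qc: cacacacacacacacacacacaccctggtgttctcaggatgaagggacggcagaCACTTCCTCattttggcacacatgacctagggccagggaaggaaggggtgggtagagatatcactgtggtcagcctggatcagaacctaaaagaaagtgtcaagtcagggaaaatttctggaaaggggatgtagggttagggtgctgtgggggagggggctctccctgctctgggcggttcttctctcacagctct
Ctss: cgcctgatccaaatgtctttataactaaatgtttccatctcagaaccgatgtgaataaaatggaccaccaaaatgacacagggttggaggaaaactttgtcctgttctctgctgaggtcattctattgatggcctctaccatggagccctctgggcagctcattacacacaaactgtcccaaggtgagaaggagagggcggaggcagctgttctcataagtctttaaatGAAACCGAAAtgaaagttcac
In C1qb the 7 letters lie 53 to 47 bases upstream of the start. The longer match in C1qc lies 196 to 188 bases upstream and contains the shorter one at 195 to 189, and the match in Ctss lies 21 to 12 bases upstream. Aif1 held GAAAAAGAAA at 157 to 148 bases upstream, and these letters were not found in the Cd68 window. Of all 32851 promoter windows of this length, 7.69% held AGGAAGT, 1.07% held GAGGAAGTG and 2.98% held the interferon response core. C1qb, C1qc and C1qa are consecutive genes on chromosome 4.

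Values are log2 levels as the authors deposited them, and a level of a gene is compared here only with the same gene's level in another array. A difference of 1 on this scale is a 2-fold difference. With 1 array per condition, the only spread between samples of a kind was that of the 3 untreated arrays, which are of different lines. Array medians lay between 6.34 and 6.67, with the lowest in 6C at day 0. The array names share 4 stems, and the arrays of 6C at days 2, 5, 11 and 16 have the same stem as the parental and primary iPS arrays. 6C at day 8 has the same stem as the secondary iPS cells, 6C at day 0 the same as day 21, and the 1B arrays have one of their own. The name of the day 8 array speaks of day 9 and that of the 6C day 0 array of day 2 without Dox, and the sample labels were followed.

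Most of the macrophage markers were higher for a few days in the middle of the 6C series than before and after. For 8 of the 9 members the highest of the 8 6C arrays was day 8, as it was for 7.76% of all 23332 clusters. Cd68 was the exception, with its highest level at day 11 and levels at days 16 and 21 that stayed above day 0, and Tyrobp was back below its day 0 level by day 11. In the 1B line, sampled after 5 days of Dox, no member was over 2-fold higher than at day 0, where 9.49% of clusters were. In a bulk sample, more cells of a type and more RNA of these genes per cell cannot be told apart.

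**Figure D1:**
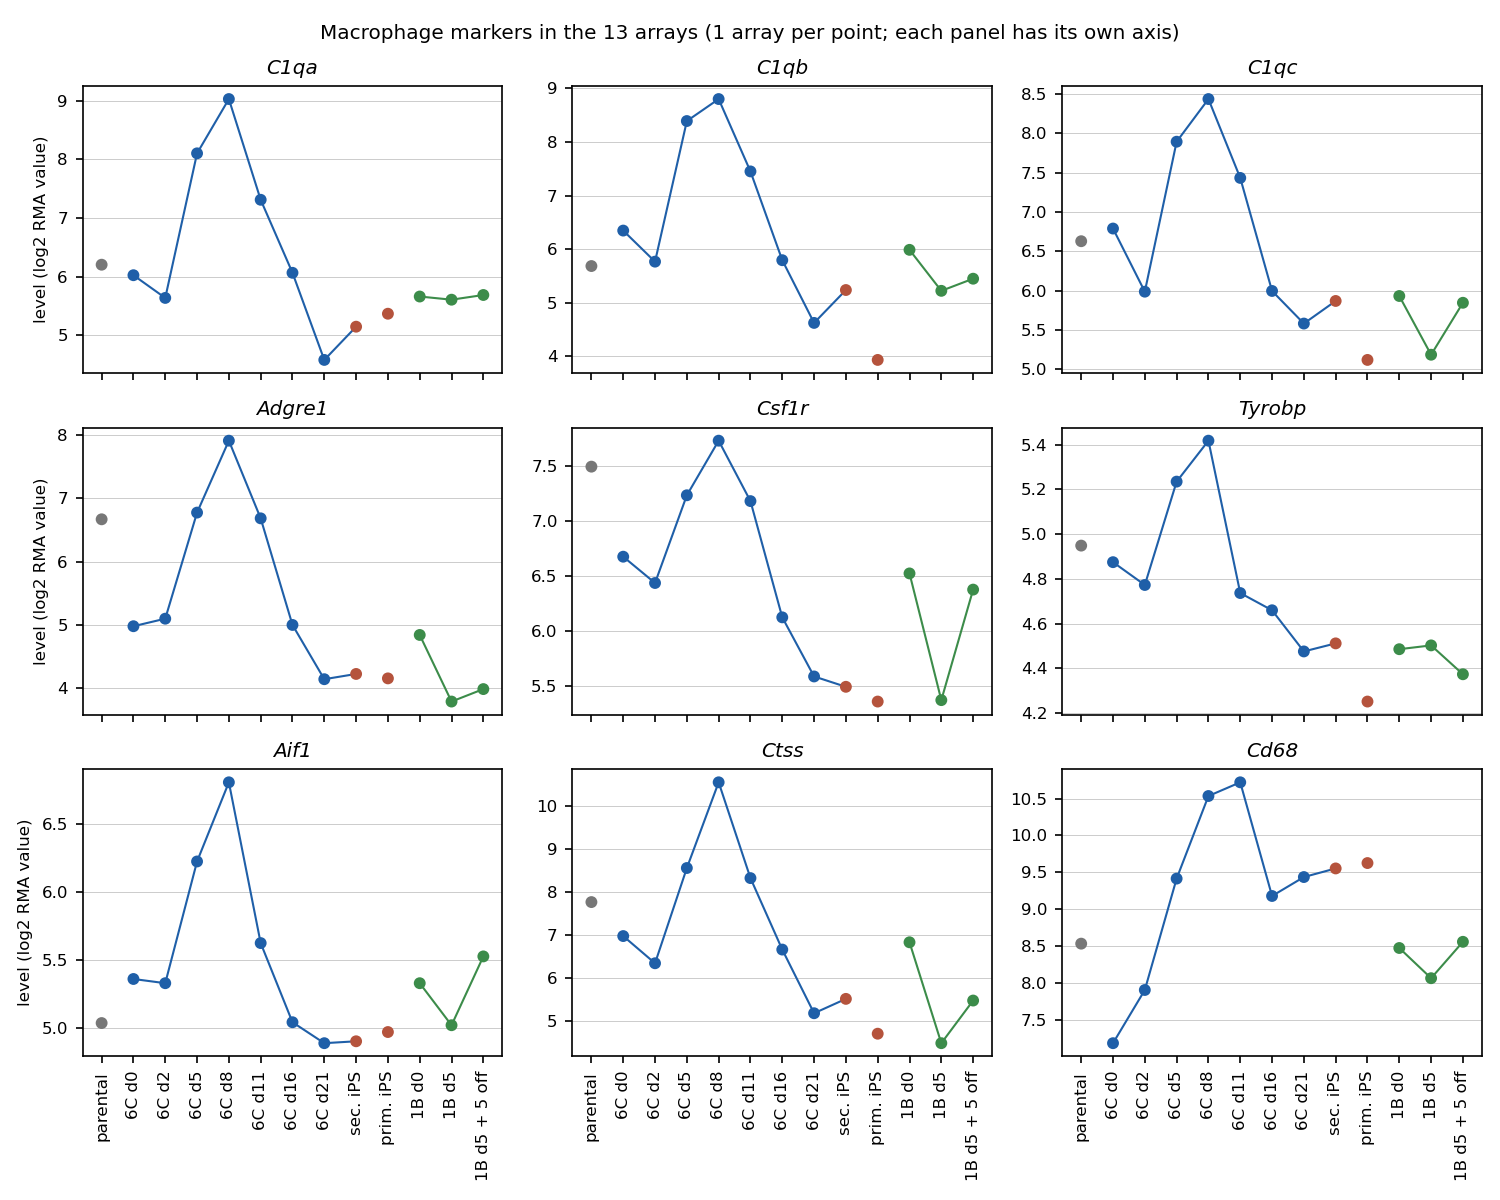
Log2 level of each of the 9 macrophage markers (vertical axes, 1 per gene) in the 13 arrays (horizontal axis, ordered by line and day), 1 point per array; blue is 6C, red is iPS cells, green is 1B and grey is the parental fibroblasts. In 8 panels the highest point is 6C at day 8, and in the Cd68 panel it is day 11 (10.72).

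The complement genes C1qa, C1qb and C1qc encode the A, B and C chains of C1q, which starts the classical complement pathway. C1qa had log2 levels of 6.03 untreated, 5.64 on day 2, 8.10 on day 5, 9.03 on day 8, 7.31 on day 11, 6.07 on day 16 and 4.58 on day 21 of the 6C series. It was 6.21 in parental fibroblasts, 5.15 in secondary and 5.37 in primary iPS cells, and 5.66, 5.61 and 5.69 in 1B before Dox, on Dox and after withdrawal. Days 5, 8 and 11 of 6C stood above each of the other 10 arrays, and day 21 was the lowest of all. The day 8 level exceeded that of day 0 by 3.00 on the log2 scale. The widest step in the ordered levels, 1.11, lay between day 11 and the parental array, against an SD of 0.28 over the untreated arrays (n = 3), and 5 of the 12 steps between neighbours were wider than that SD.

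For C1qb the 6C levels were 6.35 untreated, 5.77 on day 2, 8.39 on day 5, 8.80 on day 8, 7.45 on day 11, 5.80 on day 16 and 4.63 on day 21. Its level was 5.69 in parental fibroblasts, 5.24 in secondary iPS cells, 3.94 in primary iPS cells and 5.99, 5.22 and 5.45 in the 1B arrays. Days 5, 8 and 11 again stood apart, with 1.10 between day 11 and the next array, 6C at day 0, and the primary iPS array was the lowest. The step from day 5 to day 8 was 0.41, barely wider than the untreated SD of 0.33 (n = 3).

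C1qc ran from 6.79 in untreated 6C and 5.99 on day 2 to 7.89 on day 5, 8.44 on day 8 and 7.43 on day 11, then back to 6.00 on day 16 and 5.58 on day 21. The parental level was 6.63, the secondary and primary iPS levels were 5.87 and 5.12, and the 1B levels were 5.93, 5.19 and 5.85. This chain had the smallest day 8 difference of the C1q genes, 1.65 above day 0 on the log2 scale. The parental level of 6.63 and the 6C day 0 level of 6.79 were the nearest below day 11. The untreated SD was 0.46 (n = 3), and 4 of its 12 steps were wider.

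Among the surface proteins, Adgre1 encodes F4/80, the classic antigen of mature mouse macrophages. Its 6C levels were 4.98 untreated, 5.10 on day 2, 6.77 on day 5, 7.91 on day 8, 6.68 on day 11, 5.00 on day 16 and 4.14 on day 21. The parental array had 6.67, the iPS arrays 4.23 (secondary) and 4.16 (primary), and the 1B arrays 4.84, 3.79 and 3.99. Parental fibroblasts were level with 6C at days 5 and 11, while both secondary lines at day 0 lay well below, and this gave an untreated SD of 1.02 (n = 3). Only 2 of the 12 steps exceeded that SD, namely the one from day 8 down to day 5 (1.14) and the one from the parental array down to 6C at day 2 (1.57).

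Csf1r is the receptor through which Csf1 and Il34 keep macrophages alive. Its level in 6C was 6.68 untreated, 6.44 on day 2, 7.24 on day 5, 7.73 on day 8, 7.18 on day 11, 6.13 on day 16 and 5.59 on day 21. Elsewhere it was 7.50 in parental fibroblasts, 5.50 and 5.36 in secondary and primary iPS cells, and 6.53, 5.38 and 6.38 in 1B. Day 8 was 1.05 above day 0 but only 0.24 above the parental array, less than the untreated SD of 0.52 (n = 3). The ordered levels formed a slope without a clear break, since 1 of the 12 steps (0.54, from day 16 to day 21) was wider than the SD.

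Tyrobp encodes DAP12, the signalling adaptor that pairs with many myeloid receptors. It had the smallest range of the members, from 4.25 to 5.42. The 6C levels were 4.88 untreated, 4.77 on day 2, 5.24 on day 5, 5.42 on day 8, 4.74 on day 11, 4.66 on day 16 and 4.48 on day 21. In the other arrays it was 4.95 (parental), 4.51 (secondary iPS), 4.25 (primary iPS) and 4.49, 4.50 and 4.37 (1B). Days 5 and 8 were the highest 2 arrays, day 11 lay among the untreated ones, and the difference of 0.54 between day 8 and day 0 was the only one of the 9 under 2-fold.

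Aif1 encodes Iba1, an actin-binding protein used to stain macrophages and microglia. Levels in 6C were 5.36 untreated, 5.33 on day 2, 6.23 on day 5, 6.81 on day 8, 5.63 on day 11, 5.04 on day 16 and 4.89 on day 21. They were 5.04 in parental fibroblasts, 4.90 in secondary iPS cells, 4.97 in primary iPS cells and 5.33, 5.02 and 5.53 in 1B. Days 8 and 5 stood clear of the rest, with steps of 0.58 and 0.60 against an untreated SD of 0.18 (n = 3). Day 11 exceeded 1B after withdrawal by less than that SD.

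Of the lysosomal proteins, Ctss (cathepsin S) is the protease that trims the invariant chain of MHC class II molecules, and it had the widest range of all members, 6.08 on the log2 scale. In 6C it was 6.98 untreated, 6.34 on day 2, 8.56 on day 5, 10.56 on day 8, 8.33 on day 11, 6.66 on day 16 and 5.18 on day 21. Parental fibroblasts had 7.77, secondary iPS cells 5.51, primary iPS cells 4.70, and the 1B arrays 6.83, 4.48 and 5.48. Day 8 stood alone, 2.00 above day 5, which is also the widest step between neighbours of any member, and the lowest array was 1B on Dox. Day 8 was 3.58 above day 0.

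Cd68, a heavily glycosylated protein of late endosomes and lysosomes, followed a course of its own. Its levels went from 7.18 untreated and 7.90 on day 2 to 9.41 on day 5, 10.54 on day 8 and 10.72 on day 11. The later 6C levels were 9.18 at day 16 and 9.44 at day 21, and those of secondary and primary iPS cells were 9.55 and 9.63. Parental fibroblasts had 8.53, and the 1B arrays 8.47, 8.06 and 8.56. Unlike the other members, Cd68 stayed at or above its day 5 level in day 21 and iPS cells and was lowest in 6C at day 0. Only 1 of its 12 steps, 0.91 between day 8 and primary iPS cells, was wider than the untreated SD of 0.76 (n = 3).

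Counted over the members, levels over 2-fold above day 0 were first seen at day 5 and, except for Cd68, no longer at day 16. At day 2 no member was 2-fold from day 0 in either direction, where 11.9% of clusters were 2-fold higher and 2.7% lower. At day 5, 6 of 9 members were over 2-fold higher than at day 0 (14.6% of clusters). At day 8 this held for 8 of 9 (12.5%), with a median log2 difference of 2.45 against 0.015 over all clusters. At day 11 it held for 5 of 9 (16.4%), and at day 16 for Cd68 alone (17.5%). By day 21, 5 members were over 2-fold lower than at day 0 (9.08% of clusters), namely C1qa, C1qb, C1qc, Ctss and Csf1r, and Cd68 was 2.26 higher (13.0% of clusters were 2-fold higher).

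Step by step, day 5 was over 2-fold above day 2 for 6 of 9 members (6.03% of clusters). Day 8 exceeded day 5 for all 9, and by over 2-fold for 3 (5.02%). From day 8 to day 11, 6 of 9 were over 2-fold lower (3.83%), and from day 11 to day 16 7 of 9 were over 2-fold lower again (5.22%). Since 6C at day 0 was the dimmest array, day 8 was also set against other untreated or early arrays. It was over 2-fold higher than day 2 for 8 members (6.36%), than parental fibroblasts for 7 (8.59%) and than 1B at day 0 for 8 (7.78%). These counts share the day 8 array, and each rests on single arrays without a test.

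The array-name stem changes between some of these days, so the members were also read within a stem. Among 6C arrays of the stem that days 2, 5, 11 and 16 share, the mean of days 5 and 11 exceeded that of days 2 and 16 for all 9 members, by 0.27 (Tyrobp) to 2.14 (C1qb) and with a median of 1.67 on the log2 scale. This difference was over 2-fold for 6 of 9, against 3.58% of clusters, and the days were grouped with the earlier values known. Day 8 was over 2-fold above the secondary iPS cells of its own stem for 7 members (9.25%).

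For a test across the series, a cubic curve of the day was fitted to the 8 6C arrays with limma, and a gene was called where the adjusted p of the F test was under 0.05 and the curve lay 2-fold from day 0 on a sampled day. Of the 9 members 2 passed, both as rises, where 6.36% of all clusters were called and 4.43% as rises. The fitted day 8 level of Adgre1 was 2.61 above day 0 (SE 0.58, limma adjusted p = 0.045). For Cd68 it was 3.29 above (SE 0.49, limma adjusted p = 0.039). Both calls were lost under either other scaling of the arrays, where the limma adjusted p was 0.053 and 0.062 for Adgre1 and 0.079 and 0.051 for Cd68. They were also lost with array-name stem as a block (limma adjusted p 0.078 for Adgre1 and 0.088 for Cd68), and with degree 2 (0.36 and 0.19) or degree 4 (0.13 and 0.12) in place of the cubic. Leaving out any 1 array ended the Adgre1 call (limma adjusted p 0.056 to 0.14), and 0 members were called with any array other than day 2 or day 16 left out. Without day 2 the 2 members called were C1qa and C1qb (limma adjusted p 0.050 and 0.035), and without day 16 the 1 called was Cd68.

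The 7 other members did not pass. On simulated data this fit called 0 of 200 humps with a top at day 8, put in at 4 on the log2 scale. Only those 200 of 23332 clusters were changed there, while 1485 were called in the data. The adjusted p was therefore harder to pass in the simulation, and its 0 does not give the recovery in these data. A missed call still does not show that such a hump is absent. C1qa had a fitted difference of 2.79 (SE 0.74) and C1qb of 2.48 (SE 0.73), each with a limma adjusted p of 0.069. Ctss had 3.04 (SE 0.96, limma adjusted p = 0.098), Csf1r 1.00 (SE 0.38, limma adjusted p = 0.060) and C1qc 1.61 (SE 0.67, limma adjusted p = 0.16). Aif1, at 1.01 (SE 0.45), and Tyrobp, at 0.34 (SE 0.30), had limma adjusted p-values of 0.18 and 0.36. At an unadjusted p under 0.05, 8 members and 5743 clusters passed.

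The comparison of iPS cells (n = 2) with untreated fibroblasts (n = 3) asked which markers differed once pluripotency was reached. Ctss fell by 2.09 on the log2 scale, from 7.19 ± 0.50 (SD) in untreated arrays to 5.11 in iPS arrays (SE 0.41, limma adjusted p = 0.038), and was the only member called. That is 1 of 9, where 8.76% of clusters were called, 3.32% lower and 5.44% higher. The Ctss call was lost without any 1 of the 5 arrays, with limma adjusted p-values of 0.071 to 0.19. Csf1r differed by -1.47 (SE 0.36, limma adjusted p = 0.060) and C1qb by -1.42 (SE 0.45, limma adjusted p = 0.11). Cd68 differed in the other direction by 1.53 (SE 0.47, limma adjusted p = 0.098).

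With the arrays quantile normalized or centred on their medians, Csf1r and Cd68 were called as well, at limma adjusted p-values of 0.038 and 0.042 for Csf1r and of 0.046 and 0.049 for Cd68. C1qa (-0.71, SE 0.28), C1qc (-0.96, SE 0.39), Adgre1 (-1.31, SE 0.59), Aif1 (-0.31, SE 0.25) and Tyrobp (-0.39, SE 0.27) did not pass, with limma adjusted p-values of 0.17, 0.18, 0.22, 0.50 and 0.43. The iPS and untreated arrays did not overlap for 8 of 9 members, all but Tyrobp, and for 44.3% of all clusters. Within the stem that the primary iPS and parental arrays share, 5 members were over 2-fold lower in iPS cells (19.0% of clusters) and Cd68 was over 2-fold higher (14.1%).

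The lines differed after 5 days of Dox. In 6C the change from day 0 was positive for all 9 members, from 0.36 (Tyrobp) to 2.23 (Cd68). In 1B it was negative for 8 of them, down to -2.35 for Ctss, and 0.02 for Tyrobp. These counts by sign are not set against a share of all clusters. The 6C array medians were 6.34 at day 0 and 6.67 at day 5, and the 1B medians were 6.56 and 6.42. The part of these medians in small changes, such as that of Tyrobp in 6C, was not tested. Adgre1 (-1.05), Csf1r (-1.15) and Ctss were over 2-fold lower on Dox in 1B, 3 of 9 members, where 12.7% of clusters were. C1qa in 1B was 5.66 without and 5.61 with Dox, a difference of -0.05, where 6C differed by 2.08. Compared directly at day 5, 8 of 9 members were over 2-fold lower in 1B than in 6C (13.3% of clusters), with Ctss 4.08 lower and Tyrobp 0.73 lower.

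**Figure D2:**
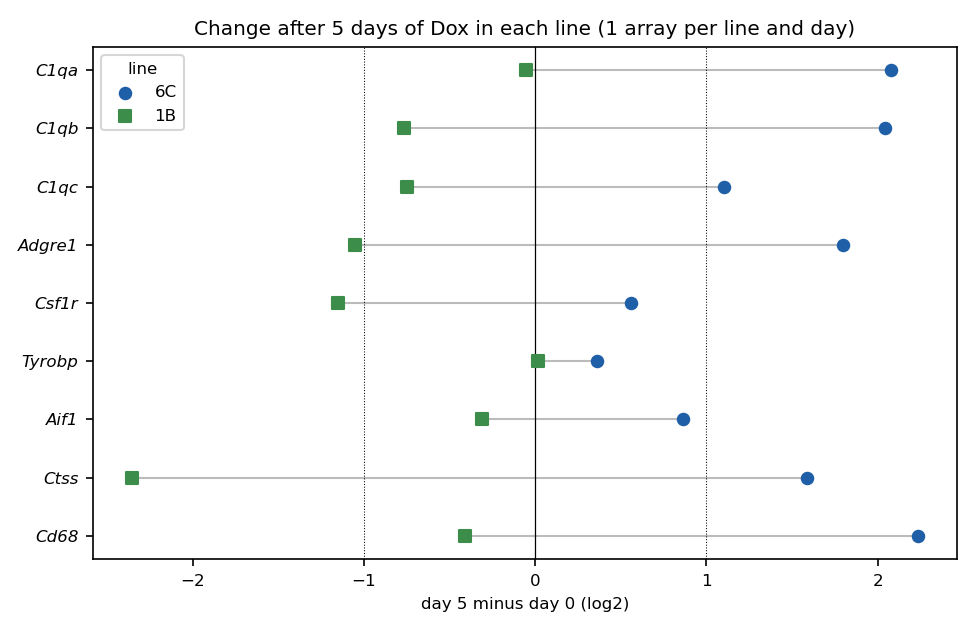
Log2 level at day 5 of Dox minus that at day 0 (horizontal axis) for each member (vertical axis), with circles for 6C and squares for 1B, 1 array per line and day; dotted lines mark 2-fold. All circles lie to the right of 0, and the squares lie between -2.35 (Ctss) and 0.02 (Tyrobp).

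Neither the line nor the day was replicated within this contrast. A limma fit over the 4 day 0 and day 5 arrays, blocked by line, called 0 of 9 members and 0.0% of clusters, and the lowest limma adjusted p of any cluster was 0.335. At an unadjusted p under 0.05, 1770 clusters and 0 members passed. C1qa had the mean change 1.01 (SE 0.64). After 5 further days without Dox, Csf1r in 1B was 1.00 above its day 5 level on the log2 scale, Ctss 0.99 above and C1qc 0.66 above. Csf1r was the only member over 2-fold higher (10.8% of clusters). Against 1B at day 0, only Ctss was over 2-fold lower after withdrawal (7.41% of clusters).

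The members resembled each other across the 13 arrays, apart from Cd68. As a description with no test, the Pearson correlations of the 3 C1q pairs were 0.93 to 0.96 (Spearman 0.87 to 0.94), and 0.80 to 0.89 without the 2 arrays farthest from the median. All 28 pairs among the 8 members other than Cd68 had correlations of 0.74 to 0.97, with a median of 0.90 (Spearman 0.59 to 0.97). Without the 2 arrays farthest from the median these pairs had 0.24 to 0.93, with a median of 0.76, and the lowest was Aif1 with Tyrobp. The 8 pairs with Cd68 had 0.20 to 0.47. The arrays share lines and name stems and are not independent samples.

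All genes with a range of at least 2 on the log2 scale (4774) were ranked by their correlation with the mean of the 3 C1q genes. Among the members, Ctss ranked 16 (r = 0.95), Adgre1 25 (0.91), Csf1r 63 (0.85) and Cd68 1216 (0.42), while Aif1 and Tyrobp had too small a range to be ranked. With the members and provisional symbols (such as RIKEN and predicted gene names) left out, the 10 genes most alike were Tlr7 (0.97), Fcer1g, Itgb2, Ms4a6b, Cybb, Slc15a3, Plek, Ptprc, Tlr13 and Itgam (0.95). Tlr7 and Tlr13 are receptors for microbial RNA, Fcer1g is the Fc receptor gamma chain, Cybb is the catalytic subunit of the phagocyte oxidase, and Ptprc encodes CD45, found on all white blood cells. Without 6C at days 5 and 8 their correlations were 0.84 to 0.92, and 8 of the 10, all but Ms4a6b and Slc15a3, also belong to the gene lists described next.

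**Figure D3:**
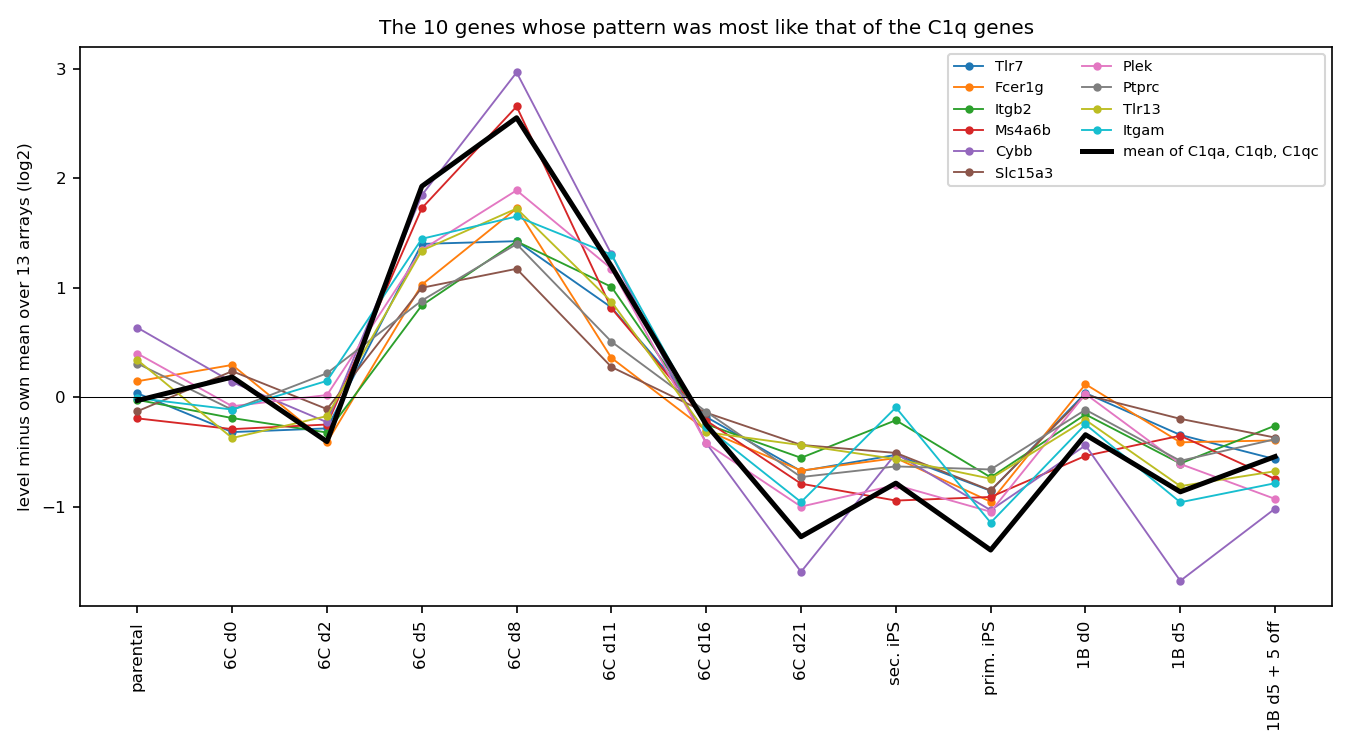
Log2 level minus the gene's own mean over the 13 arrays (vertical axis) in each array (horizontal axis) for the mean of C1qa, C1qb and C1qc (black) and the 10 genes with the highest Pearson correlation to it (coloured). Members and provisional symbols were left out of these 10. All of the coloured lines are high at days 5 and 8 of 6C. At day 11 Fcer1g (5.91) and Slc15a3 (6.43) lie near their 6C day 0 levels (5.85 and 6.39). Cybb reaches the greatest height, 8.74 at day 8 from 5.91 at day 0 as levels.

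Other genes of white blood cells and phagocytes were high in the same 6C arrays. At day 8, 10 of 14 general leukocyte genes were over 2-fold above day 0, with a median log2 difference of 1.36. They included Plek (5.67 at day 0, 7.64 at day 8), a substrate of protein kinase C in platelets and leukocytes, and Cd52 (3.62 and 6.29), a short glycoprotein of the leukocyte surface. Of 12 chemokine and pattern recognition receptors 9 were over 2-fold higher, with a median of 1.74, among them Ms4a6c (4.81 to 8.63) and C3ar1, the receptor for complement C3a (5.86 to 8.72). Over all clusters, 12.5% were 2-fold higher and 8.37% lower on that day.

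In some other lists fewer genes were higher. Of 11 scavenger receptors 4 were over 2-fold higher at day 8, namely Mrc1 (4.65 to 8.03), Msr1 (4.18 to 6.71), Cd36 and Folr2. Of 10 Fc receptor genes and Tyrobp partners 2 were, Fcer1g and Clec5a, a lectin that signals through Tyrobp (4.49 to 7.39). Cybb was the only one of 8 phagocyte oxidase and lysosome genes, and of 8 myeloid transcription factors Spi1 was higher (5.57 to 6.93) and Runx1 over 2-fold lower. Over all clusters 12.5% were 2-fold higher and 8.37% lower at day 8. The counts for the Fc receptor, oxidase and transcription factor lists were near these shares and are no result about those lists. In the cubic fit, Ptprc, Itgam, Laptm5, Lcp1 and Plek of the leukocyte list, Mrc1 and Msr1, Clec5a, C3ar1 and the complement regulator Cd55 were called as rises (4.43% of clusters), and Cd53, Tlr4, Gpnmb and Runx1 as falls (1.93%). With array-name stem as a block 0 clusters were called, so each of these calls was lost. Of 16 general lysosome genes 0 were over 2-fold higher at day 8 (median difference 0.023).

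**Figure D4:**
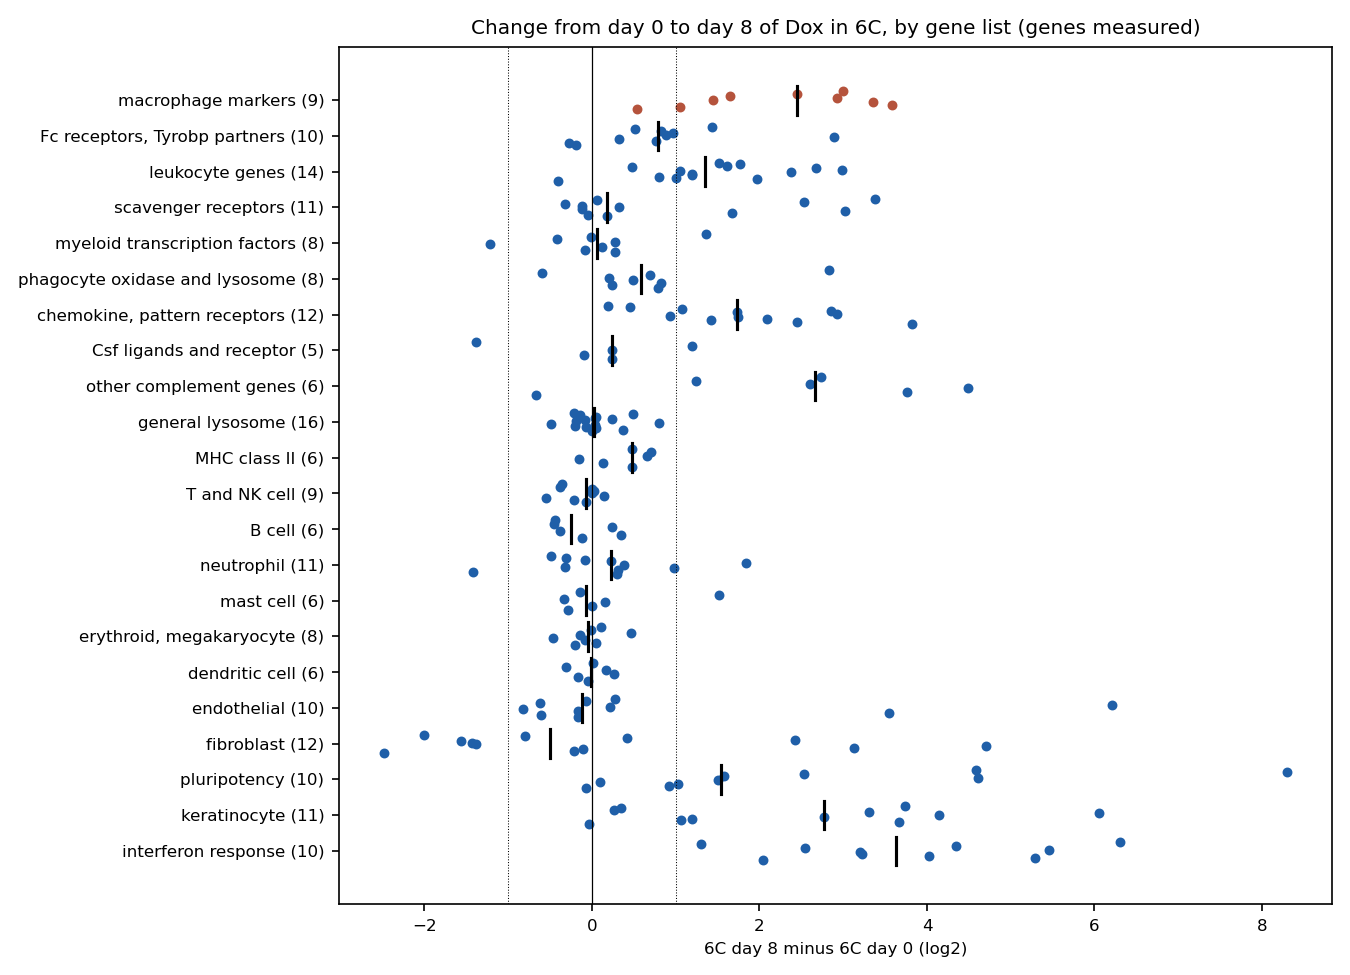
Log2 level in 6C at day 8 minus day 0 (horizontal axis) for every measured gene (points) of the macrophage markers (red) and of each other list (blue; vertical axis, number of genes in brackets), with black bars at the list medians and dotted lines at 2-fold. The markers have a median of 2.45, the interferon list 3.63, the keratinocyte list 2.78 and the T and NK cell list -0.07.

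Markers of several other blood cells were near their day 0 levels at day 8. None of 9 T and NK cell, 6 B cell, 8 erythroid and megakaryocyte, 6 dendritic cell and 6 MHC class II genes was 2-fold from day 0, with list medians of -0.071, -0.25, -0.048, -0.016 and 0.48. The summed level of the T and NK cell genes was 8.13 to 8.27 (log2 of the summed linear values) at days 5, 8 and 11 and 8.07 to 8.63 in the other 10 arrays. That of the dendritic cell genes was 7.64 to 7.96 against 7.64 to 8.11. For the macrophage markers themselves the ranges were 11.16 to 12.26 and 9.03 to 10.18, which did not overlap. At day 8 this sum rested mostly on Ctss (10.56) and Cd68 (10.54), and at day 11 mostly on Cd68 (10.72). Days 5, 8 and 11 were grouped with the members' levels known. No share over all clusters was computed for this sum or for those of the other lists. Of 11 neutrophil genes, the granule protein gene Ltf was over 2-fold higher (5.17 to 7.01) and Retnlg over 2-fold lower, and the summed level, 8.54 to 8.76 against 8.01 to 8.37, did not overlap either. At days 5, 8 and 11 the largest term of that sum was Ltf (6.86, 7.01 and 6.79), which was 4.83 to 5.22 in the other arrays. The sum without Ltf was not computed, so it does not show a rise of the neutrophil genes as a set. Of 6 mast cell genes 1 was over 2-fold higher, the receptor gene Kit (5.03 to 6.54), which was called as a rise in the cubic fit and was highest in secondary iPS cells (9.85); the summed level of the list, 7.41 to 8.20, overlapped that of the other arrays (6.80 to 9.98).

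Genes of other kinds were high in the same arrays. All 10 interferon response genes were over 2-fold higher at day 8 than at day 0, with a median log2 difference of 3.63, and their summed level was 12.02 to 13.44 at days 5, 8 and 11 against 9.50 to 11.67 elsewhere. Of 6 complement genes outside C1q 5 were over 2-fold higher, with a median of 2.67, among them C1ra, the protease partner of C1q (5.45 to 8.18), Serping1, the C1 inhibitor (8.01 to 12.50), and Cfb (5.17 to 7.77). The summed complement level, 11.87 to 13.13, overlapped that of the other arrays (9.30 to 12.09). Of 10 endothelial genes 2 were over 2-fold higher, Tek (4.53 to 10.74) and Cd34 (6.60 to 10.15), and the summed level of 11.28 to 11.65 did not overlap that of the other arrays (9.18 to 11.07). That sum rested mostly on Tek and Cd34. Tek was not particular to these arrays, since it was also 10.03 at day 16, 10.23 at day 21 and 10.66 in 1B on Dox. The keratinocyte genes were over 2-fold higher for 8 of 11, but their summed level of 11.94 to 12.91 overlapped that of the other arrays (9.30 to 12.99). Of 12 fibroblast genes 3 were over 2-fold higher (Pdgfra, Lum and Dcn) and 5 lower, and the summed level of the list was 15.48 to 16.31 against 13.03 to 16.64. In parental fibroblasts Pdgfra was 11.73, above its day 8 level of 11.14. Lum (12.48) and Dcn (13.10) were there somewhat below their day 8 levels (12.97 and 13.32). The part of these genes in the levels of the macrophage markers was not tested.

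The growth factors of Csf1r had other courses. Csf1 was 12.54 in parental fibroblasts, and in 6C 11.72 untreated, 11.65 on day 2, 10.90 on day 5, 10.34 on day 8, 9.83 on day 11, 10.12 on day 16 and 8.26 on day 21. It was 9.76 and 8.85 in secondary and primary iPS cells, where it fell by 2.93 on the log2 scale from the untreated arrays (SE 0.41, limma adjusted p = 0.020). In 1B its level was 12.47 untreated, 7.56 on Dox and 11.75 after withdrawal. Csf1 was thus highest in untreated cells of each line, and in 6C it was over 2-fold lower at day 8, the day on which Csf1r was highest. Il34 was highest at day 11, at 8.47 against 6.33 at day 0 and 7.53 at day 8.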

How the data were processed

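RNA of 13 samples was measured on Affymetrix mouse exon arrays. The values are the authors' deposited log2 levels of 23332 transcript clusters, made with Affymetrix Expression Console by RMA on build mm9, per the submitters' processing notes; versions are not given in the sources used here. RMA corrects background, sets the arrays on a common distribution and summarises probes, so low values are compressed. The values run from 0.461 to 14.3, and their log base, which is not stated, was taken to be 2. Of the clusters 14996 had 1 gene symbol in the platform annotation, 1019 several and 7317 none, and 14941 symbols were updated by gene identifier to GRCm38.p6 names. No coordinates but those of the promoter windows are given, since the builds differ.

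Groups came from the labels. limma 3.58.1 in R 4.3.3 was fitted to all clusters, with Benjamini-Hochberg adjustment, for iPS against untreated arrays, for a cubic curve of day over 8 6C arrays, and for day 5 with line as a block. Calls needed an adjusted p under 0.05 and a fold of 2. The p-values rest only on the spread between these arrays, which is not a spread between replicates of a condition. For iPS against untreated arrays it includes line, since the untreated arrays are of different lines. For the cubic curve no day was replicated, so it is departure from the curve, which includes any real change of another shape. For day 5 it is the difference between the lines in their change. Technical spread may be part of each and was not separated. Single arrays were compared without a test. On simulated data the cubic fit recovered nearly all smooth humps of the curve's own shape and 85% of straight rises. It recovered none of the humps with a top at day 8. The fits of the other comparisons recovered nearly all of the changes put in. All changes put in were of 4 on the log2 scale, in 200 of 23332 clusters. This is larger than the difference of any member in those other comparisons, and recovery of smaller changes was not examined. Results were recomputed with other scalings, without dim clusters, with trended moderation, other curves, blocks, baselines and fold rules, and with each array left out.

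Named were the members, of each other list up to 4 genes by range over the 6C arrays, and the 10 genes most correlated with the mean of the C1q genes. Members and provisional symbols were left out before these 10 were taken. Other list genes named beside a count were chosen after their values were seen. The members and lists were chosen with earlier results of these data known. Precision is limited by having so few arrays.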

Additional observations from a re-analysis of the deposited data

Results flagged for a closer look

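Of the 9 members and 91 other named genes, 17 were over 2-fold from day 0 in opposite directions in the 2 lines after 5 days of Dox, higher in 6C and lower in 1B. Over all 23332 clusters, 2.01% were higher in 6C and lower in 1B in this way. Many of the named genes were chosen for a wide range over the 6C arrays or for likeness to the C1q genes, which favours a large 6C change, so their count is not comparable with that share. With 1 array per line and day the difference was not tested. The values below are the change in 6C minus the change in 1B, on the log2 scale. Among the members, Ctss differed by 3.94 (1.59 in 6C, -2.35 in 1B) and Adgre1 by 2.85 (1.80 and -1.05). Among other genes of phagocytes, the difference was 5.81 for Gpnmb, a glycoprotein of lysosomes and melanosomes, 5.46 for C3ar1, 5.22 for Tlr4, the endotoxin receptor, 4.28 for Clec5a, 3.76 for Mertk, a receptor for engulfing dead cells, 3.46 for Ms4a6c, 3.32 for Msr1, 3.25 for the elastase gene Mmp12 and 2.94 for Cybb. In genes of the other lists the difference was 8.47 for Lum, a collagen-binding proteoglycan of fibroblasts, 5.64 for Pdgfra, 4.62 for Cd34, 6.34 for Serping1, 6.72 for Ifit1 and 6.33 for Gbp2, both interferon response genes.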

How the results depend on the processing

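The count of members over 2-fold above 6C day 0 at day 8, 8 of 9, was 7 or 8 under every scaling and baseline run. Calls from the fits were less stable. Between iPS and untreated arrays 2044 clusters were called; the total was 3085 after the filter on low values (11666 clusters and 2 members, Cd68 and Ctss, left) and 80 to 928 with 1 array left out; the members called went from 1 to 3 with quantile normalization and 3 with median centring, and to 0 with any 1 array left out. In the 6C series the total of 1485 calls was 3058 after the filter, 368 with degree 4, 0 with array-name stem as a block, and 151 to 743 with 1 array left out. The 2 members called became 0 with quantile normalization, 0 with centring, 5 with trended moderation, 0 with degree 2, 0 with degree 4, 5 with a natural spline, 0 with stem as a block, 0 with the untreated mean as day 0, and 0 to 2 with 1 array left out. Day 9 for the day 8 array, an alternative added after seeing the data, left 2 members and 1446 clusters. At day 5 the 0 calls became 593 with centring, and 0 with no replicate block (line left out); leaving out an array there leaves no residual degrees of freedom and was not run. The count of clusters over 2-fold higher at day 8, 2925, was 1483 against day 2 and 1815 against 1B day 0, baselines added after seeing the data. Tyrobp had a fitted day 8 difference of -0.066 with degree 2, and C1qc a day 5 change of -0.089 with quantile normalization. The mean over clusters of a gene was the same as the main value, since each member had 1 cluster. Of 294 other values of single members, 239 kept their direction and side of the threshold. The causes were not tested. With 1 array per condition, neither the day 8 level nor the difference between the lines has a replicate.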

Other observations

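Some genes of leukocytes and phagocytes were highest in other arrays than days 5 and 8 of 6C. Laptm5, a lysosomal membrane protein of blood cells, had log2 levels of 7.72 in untreated 6C, 10.71 on day 8 of Dox, 11.21 on day 16 and 11.69 on day 21, and 11.48 in primary but 9.08 in secondary iPS cells. Ikzf1, a transcription factor of lymphoid cells, was 5.15 on day 8, 7.52 on day 16 and 6.65 on day 21 of 6C, and between 4.43 and 5.34 in the other arrays. Acp5, the tartrate-resistant phosphatase of osteoclasts and some macrophages, stood at 9.49 at day 11 and at 7.49 or lower in each other array. Mmp12, the macrophage elastase, was highest in 1B after withdrawal of Dox (7.49) and next at day 11 of 6C (7.25), while in 1B on Dox it was 3.50. Cd74, the invariant chain that Ctss processes, was 6.49 and 6.72 in secondary and primary iPS cells, against 5.03 to 5.12 in the untreated arrays, and was called higher there.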
